A study of Mus musculus with 9 samples.

Results

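Bergapten gel on imiquimod-challenged mouse back skin was compared with the challenge alone, across all genes with enough reads, in 6 of the 9 libraries of a bulk RNA-seq series. The members were taken by label: 3 libraries of skin given imiquimod (IMQ) for 7 days together with a bergapten gel for 2 days (bergapten skin below), and 3 of skin given IMQ for 7 days (IMQ skin). The other 3 libraries, of skin given vaseline for 7 days (vaseline skin), are shown beside them as levels. All mice were wild-type BALB/c, free of specific pathogens, aged 6 to 8 weeks, and shaved on the back. The days of the challenge on which the gel was given, the clock time at which skin was taken and its interval from the final IMQ dose are not in the labels, which also describe no IMQ skin under a gel without bergapten. The comparison is therefore of the gel, vehicle included, and what the bergapten in it contributed cannot be told apart from the vehicle.

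IMQ activates Toll-like receptor 7, and rubbed into mouse skin as a cream it raises an inflammation that resembles psoriasis. In that model, plasmacytoid and conventional dendritic cells, gamma-delta T cells making interleukin (IL)-17, and neutrophils drawn by chemokines of stressed keratinocytes act together on a thickening epidermis. Bergapten is a plant furanocoumarin of the psoralen type, a class known for its use with ultraviolet light in psoriasis and for its action on cytochrome P450 enzymes. Mouse back skin carries a sheet of striated muscle, the panniculus carnosus, below the dermis and fat, so that RNA of whole skin also reports on muscle.

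Counted reads came to 15855439 to 19862905 per library in bergapten skin and 18890579 to 19456060 in IMQ skin, against 16080479 to 18757911 in vaseline skin. Levels are given in CPM, reads scaled to a common library total (TMM), which compare libraries for 1 gene and not 1 gene with another. All 24 marker genes of the cell types expected in skin were measured, among them Krt5 of the basal epidermis, Col1a1 of fibroblasts, Ptprc of leukocytes and Acta1 of striated muscle. The IMQ libraries differed most among themselves: the mean within-group variance of log2 CPM was 0.1021 in bergapten skin and 0.238 in IMQ skin, against 0.1002 in vaseline skin. On the principal component that held 43.5% of the variance of the 6 libraries, bergapten replicates 1 to 3 lay at -34.1, -24.1 and -32.2 and IMQ replicates 1 to 3 at 20.6, 71.3 and -1.5. On that component IMQ replicate 3 thus lay nearest to bergapten skin, and IMQ replicate 2 farthest. The next component (21.4%) gave another order, with bergapten replicates at 23.1, 14.4 and 7 and IMQ replicates at -27.5, 26.1 and -43.1. In bergapten replicate 2 the ribosomal RNA gene Rn18s took 1.794% of counts, against 0.179% to 0.27% in the other 8 libraries.

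In the edgeR quasi-likelihood test over all 9 libraries, 869 of 18005 genes (4.83%) passed an adjusted p of 0.05 between bergapten and IMQ skin, and these are the genes called below. Of them 392 (2.18%) were higher and 477 (2.65%) lower in bergapten skin, and 355 differed at least 2-fold. No called gene overlapped between its 3 bergapten and 3 IMQ libraries, as was true of 26.4% of all genes tested. The IMQ library nearest to bergapten skin was replicate 3 for 313 of the 477 lower genes and for 195 of the 392 higher ones. Without IMQ replicate 3 the test called 1711 genes. It called 139, 332 and 176 without bergapten replicate 1, 2 or 3, and 454, 480 and 443 without vaseline replicate 1, 2 or 3. A fit of the 6 compared libraries alone, whose common coefficient of biological variation was 0.211, against 0.187 with vaseline skin, called 130 genes (0.752% of 17294), and 127 of these were among the 869. A fit with a separate spread for each group (limma voom) called 518 genes (2.88%), of which 498 were among the 869. In all, 116 genes were called in each of the 9 fits that left out 1 library; below, a call is lost without a library where the adjusted p of the fit without it is above 0.05, and the highest such p follows. Whether replicates were different mice is not stated in the labels; the p-values thus cover the spread among these samples only, and that may be technical.

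**Figure D1:**
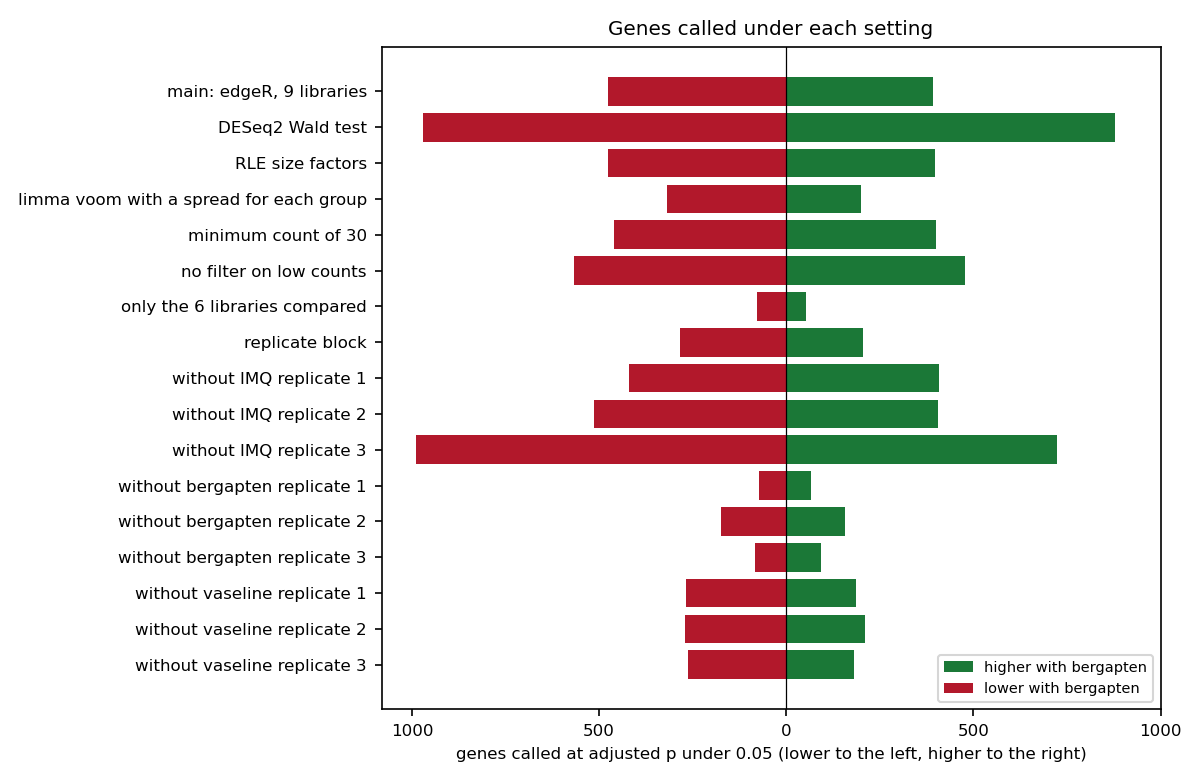
Number of genes called higher (bars to the right) and lower (bars to the left) in bergapten than in IMQ skin, for the main test and, below it, other settings and the 9 fits that left out 1 library. The main test gave 392 and 477, the fit of the 6 compared libraries 53 and 77, and the fits without 1 bergapten library fall below those without 1 IMQ library.

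**Figure D2:**
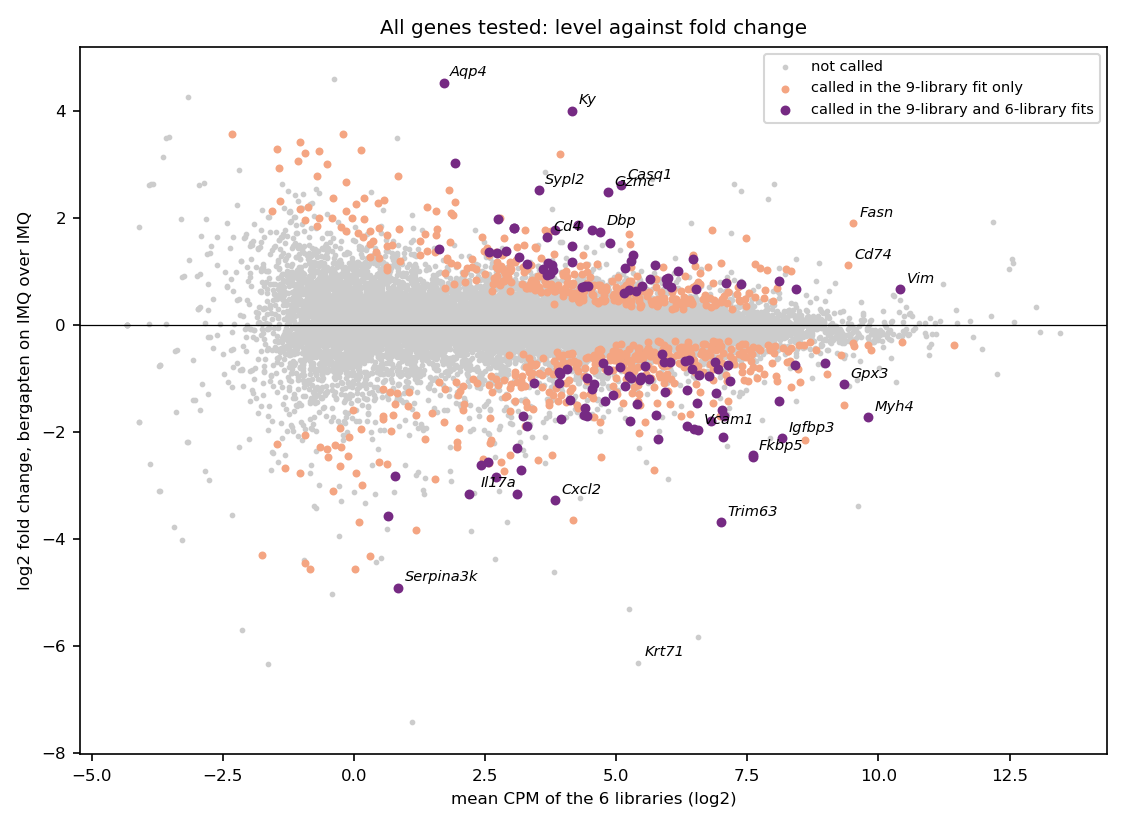
Log2 fold change of bergapten over IMQ skin against the mean CPM of the 6 libraries (log2 axis) for the 18005 genes tested, each gene a point. Orange points are genes called only in the 9-library fit and purple points the 127 called also in the 6-library fit; hair keratin Krt71 (log2 fold change -6.31) lies far below 0 without being called.

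Fkbp5, Mt1, Trim63, Fbxo32 and others of a list of glucocorticoid-responsive and muscle-wasting genes were lower in bergapten skin. Glucocorticoids act through a nuclear receptor, the product of Nr3c1, which induces Fkbp5, Zbtb16, Klf15 and the metallothioneins; in muscle it works with FoxO transcription factors to raise the ubiquitin ligases Trim63 and Fbxo32, which mark muscle proteins for breakdown. Of 22 genes of this list, 8 were lower and 1, Mstn, higher (40.91% called, against 4.83% of all genes tested). Of the list 21 had a negative log2 fold change. The median was -1.11, against -0.0045 over all genes tested.

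Trim63 (ENSMUSG00000028834) stood at 11.8, 22.9 and 20.5 CPM in bergapten skin, 113, 438 and 161 CPM in IMQ skin and 44.6, 64.7 and 65.9 CPM in vaseline skin. All bergapten libraries lay below all vaseline libraries, and IMQ replicate 2 was the highest of the 9. Trim63 fell by 3.68 on the log2 scale (SE 0.55, edgeR adjusted p = 0.0151), a call lost without bergapten replicate 1 or 3 (adjusted p up to 0.0721). Fbxo32, the companion ligase atrogin-1 (ENSMUSG00000022358, GRCm39 chromosome 15, 58039275 to 58078328, minus strand), stood at 44.3, 63.3 and 42.2 CPM in bergapten skin, 146, 311 and 179.8 CPM in IMQ skin and 104, 96.4 and 116 CPM in vaseline skin. It too was highest in IMQ replicate 2 and below vaseline skin in every bergapten library, and it fell by 2.09 (SE 0.28, edgeR adjusted p = 0.00975; 0.0594 without bergapten replicate 1).

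Fkbp5, a co-chaperone of steroid receptors whose transcript is a common readout of glucocorticoid action (ENSMUSG00000024222, GRCm39 chromosome 17, 28618068 to 28736501, minus strand), stood at 53.2, 60.9 and 64.9 CPM in bergapten skin, 376, 416 and 196 CPM in IMQ skin and 100.1, 84.9 and 69.2 CPM in vaseline skin. The 3 bergapten libraries lay close together and below the vaseline libraries, and the IMQ libraries far above both. Fkbp5 fell by 2.46 (SE 0.27, edgeR adjusted p = 0.00492) and was called in all 9 fits that left out a library. Mt1, the metal-binding metallothionein 1 (ENSMUSG00000031765), stood at 107, 179.8 and 163 CPM in bergapten skin, 424, 416 and 360.4 CPM in IMQ skin and 100.2, 96.7 and 110.3 CPM in vaseline skin. Its bergapten libraries reached down to the vaseline range only in replicate 1, and it fell by 1.42 (SE 0.17, edgeR adjusted p = 0.00457), also in all 9 fits. Zbtb16, a zinc finger repressor, averaged 14 ± 2.31 CPM in bergapten skin and 92.1 ± 51.9 CPM in IMQ skin (SD, n = 3 each) and fell by 2.72 (edgeR adjusted p = 0.0155). Klf15, a Krüppel-like factor of amino acid and lipid use, averaged 11.4 ± 0.459 and 39.9 ± 18 CPM in bergapten and IMQ skin and fell by 1.81 (edgeR adjusted p = 0.0126). The CCAAT-binding factor Cebpd fell by 1.71 (edgeR adjusted p = 0.0163) and Angptl4, an inhibitor of lipoprotein lipase, by 1.09 (edgeR adjusted p = 0.0428). Zbtb16 and Cebpd were not called without any 1 of the bergapten replicates (adjusted p up to 0.0765 and 0.0786), Klf15 without replicate 1 or 3 (up to 0.0669), and Angptl4 kept its call among the 9 fits only without IMQ replicate 3 or vaseline replicate 2 (up to 0.146). Of the list, 2 members, Fkbp5 and Mt1, were called in every such fit, and 4 in the 6-library fit. Called members numbered 2 without bergapten replicate 1 and 15 without IMQ replicate 3.

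The promoters of Trim63 and Mt1 are shown because they carry the receptor's palindrome, searched as GNACA, 3 bases of any kind and TGTNC, within 250 bases before and 50 after the gene's start. The sequences are RefSeq's, on GRCm38.p6, at chr4:134314870-134315169 (plus strand) for Trim63 and chr8:94178839-94179138 (plus strand) for Mt1. Capitals mark matches to the palindrome, which is read the same way on both strands, and in Trim63 also, 1 base further on and without overlap, to the FoxO core TGTTTAC.
Trim63: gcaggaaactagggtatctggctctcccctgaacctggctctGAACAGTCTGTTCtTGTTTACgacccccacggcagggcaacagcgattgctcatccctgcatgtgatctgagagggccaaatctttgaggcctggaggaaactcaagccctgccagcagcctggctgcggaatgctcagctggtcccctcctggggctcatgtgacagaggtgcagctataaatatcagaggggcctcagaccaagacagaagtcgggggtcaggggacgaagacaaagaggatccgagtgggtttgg
Mt1: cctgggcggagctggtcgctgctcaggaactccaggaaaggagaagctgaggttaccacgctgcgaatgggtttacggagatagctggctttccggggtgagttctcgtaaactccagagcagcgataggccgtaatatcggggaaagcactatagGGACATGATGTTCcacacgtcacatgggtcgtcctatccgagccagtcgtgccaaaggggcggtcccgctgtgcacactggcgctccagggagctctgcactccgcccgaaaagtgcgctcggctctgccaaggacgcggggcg
Among the 18 list members tested that have a promoter in the table, Mt1, Sgk1 and Trim63 hold the palindrome and Klf9 and Trim63 the FoxO core, on either strand. Over all 32851 promoters of the same length, 0.475% hold the palindrome and 3.65% the core. Sgk1, the serum- and glucocorticoid-regulated kinase, differed by -0.09 (edgeR adjusted p = 0.89) and Klf9 by -1.16 (edgeR adjusted p = 0.0504), so that holding a match did not go with a call in every case. A match gives letters in a window and not a bound site.

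Other large falls lay outside that list. Galnt15, an enzyme that starts O-linked glycans, stood at 59.9, 72.5 and 51.1 CPM in bergapten skin, 306, 486 and 198 CPM in IMQ skin and 116, 126 and 157 CPM in vaseline skin. Each bergapten library was below every vaseline library, and the gene fell by 2.43 (SE 0.31, edgeR adjusted p = 0.00839; 0.0529 without bergapten replicate 1). The actin-associated, steroid-responsive Fam107a had 1.31, 1.79 and 1.63 CPM in bergapten skin, 9.56, 18.5 and 6.25 CPM in IMQ skin and 5.76, 4.05 and 4.93 CPM in vaseline skin. It fell by 2.85 (edgeR adjusted p = 0.00633), with IMQ replicates above both other groups. Vnn1, a pantetheinase, was at 0.418, 0.447 and 0.357 CPM in bergapten skin, 2.96, 3.29 and 2.54 CPM in IMQ skin and 8.0, 7.45 and 7.97 CPM in vaseline skin, lower in IMQ than in vaseline skin and lowest with the gel, a fall of 2.83 (edgeR adjusted p = 0.00112). Serpina3k, a serine protease inhibitor, was near the limit of counting in bergapten skin: it stood at 0.119, 0.149 and 0.051 CPM in bergapten skin, 3.33, 5.66 and 1.22 CPM in IMQ skin and 0.603, 1.05 and 0.535 CPM in vaseline skin. Serpina3k fell by 4.91 (SE 0.70, edgeR adjusted p = 0.00714). Its relative Serpina3n, far more abundant in IMQ than in vaseline skin, had 278, 407 and 398 CPM in bergapten skin and 756, 579.7 and 707 CPM in IMQ skin. Serpina3n fell by 0.92 (edgeR adjusted p = 0.0126). Ctxn3, Lrrc30 and the mitochondrial carrier Slc25a34 fell by 3.16, 2.72 and 2.57 (edgeR adjusted p = 0.00487, 0.00293 and 0.00457). Apart from Galnt15, the genes of this paragraph were called in all 9 fits that left out a library.

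Among genes of high level, Igfbp3, a carrier that holds insulin-like growth factors, stood at 96.9, 137 and 86.4 CPM in bergapten skin, 545, 595 and 258 CPM in IMQ skin and 232, 299.6 and 395 CPM in vaseline skin. Igfbp3 fell by 2.12 (edgeR adjusted p = 0.0185; up to 0.0871 without IMQ replicate 2 or bergapten replicate 1 or 3). Apod, a lipocalin that binds small lipids, had 134, 176 and 116 CPM in bergapten skin, 698, 879.7 and 318 CPM in IMQ skin and 194, 203 and 189 CPM in vaseline skin. Apod fell by 2.15 (edgeR adjusted p = 0.0163; up to 0.0801 without bergapten replicate 1 or 3). Gpx3, the secreted glutathione peroxidase, had 414, 451 and 370.0 CPM in bergapten skin, 1039, 918 and 699 CPM in IMQ skin and 1271, 1292 and 1157 CPM in vaseline skin, so that the gel group lay farther from vaseline skin than the challenge alone. It fell by 1.1 (SE 0.14, edgeR adjusted p = 0.00492). Some further genes were chosen after their values were seen: Hif3a, the hypoxia-inducible factor that lacks a strong activation domain, fell by 2.31 (edgeR adjusted p = 0.00605), the flavin monooxygenase Fmo2 by 2.14 (edgeR adjusted p = 0.00528), the imprinted zinc finger gene Peg3 by 1.79 (edgeR adjusted p = 0.00366) and the zinc importer Slc39a14 by 1.46 (edgeR adjusted p = 0.00112). Nr3c1 itself, chosen likewise, had 174, 161 and 140.2 CPM in bergapten skin, 115, 125 and 119 CPM in IMQ skin and 244, 245 and 258 CPM in vaseline skin. Nr3c1 rose by 0.40 (SE 0.09, edgeR adjusted p = 0.0365), a call that held among the 9 fits only without bergapten replicate 3 or IMQ replicate 2 or 3 (up to 0.137).

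**Figure D3:**
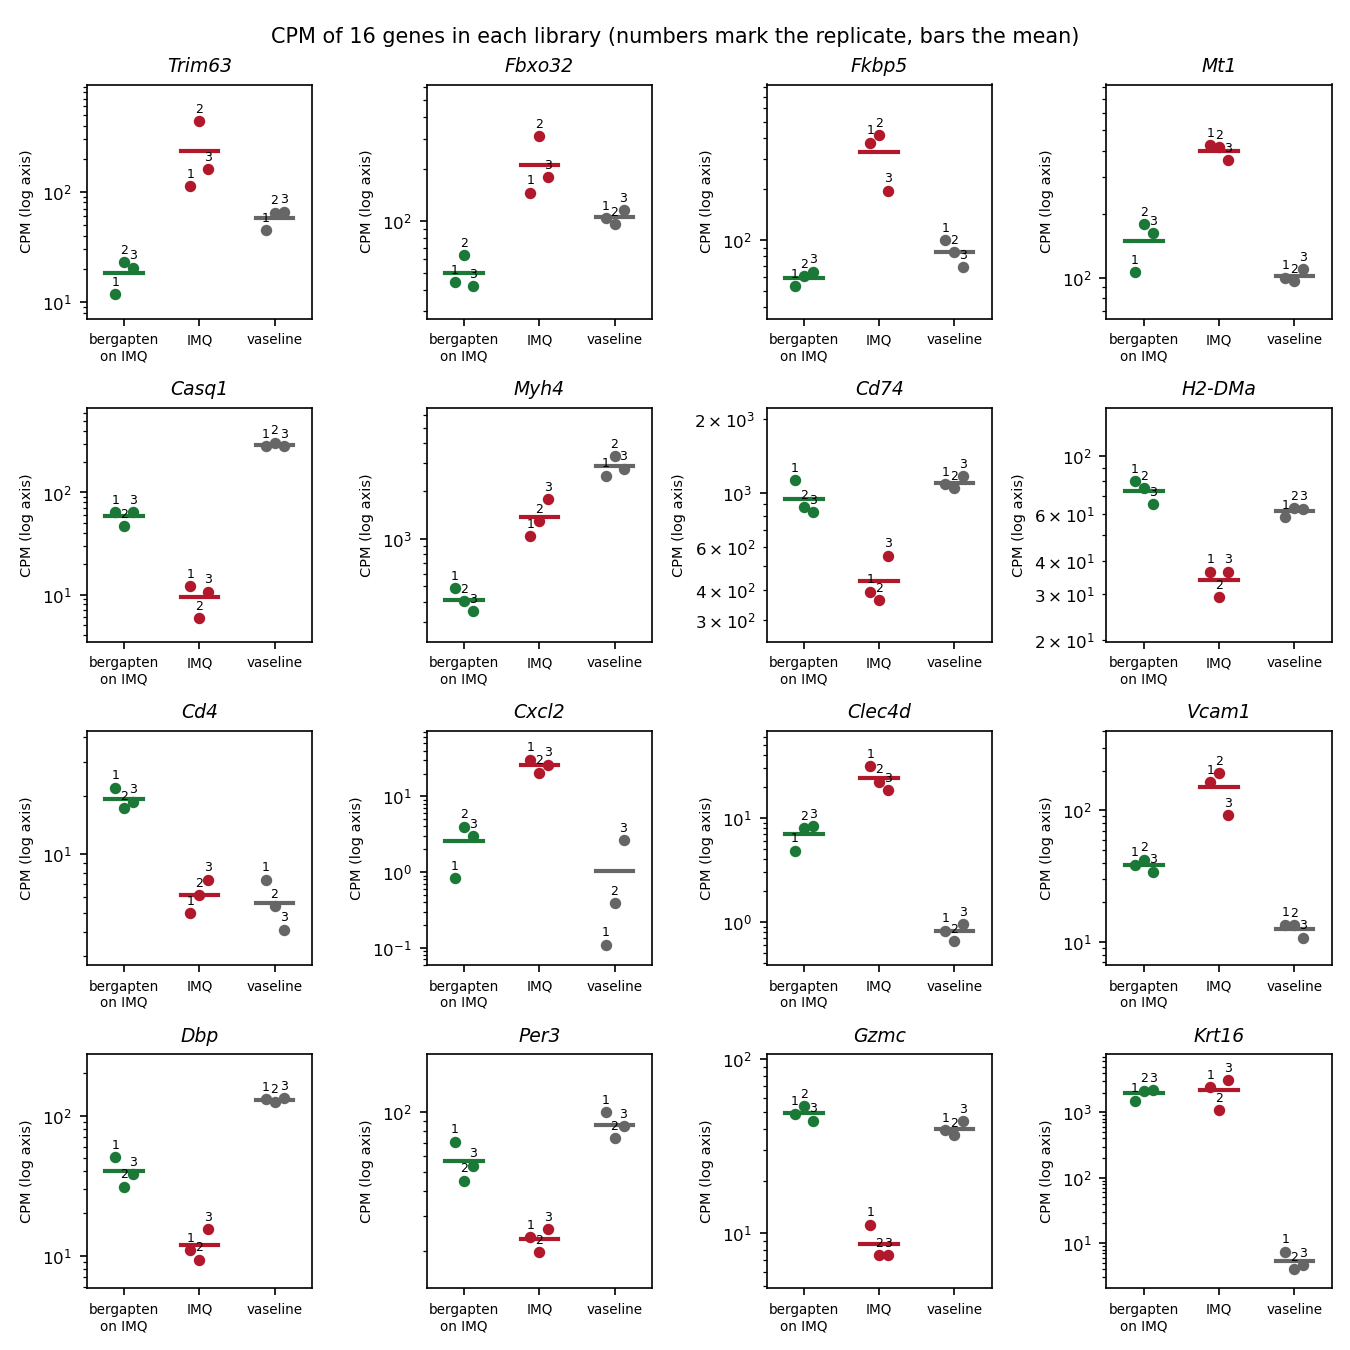
CPM (log axis) of 16 genes in each library, bergapten skin left, IMQ skin middle and vaseline skin right; points are libraries, numbered by replicate, and lines are means. Trim63, Fbxo32 and Fkbp5 are lower in all bergapten libraries than in any other, Casq1, Cd74 and Dbp lie above IMQ skin, and the Krt16 libraries of both challenged groups overlap.

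Muscle genes moved in both directions. The 28 listed sarcomere and energy genes, the untested Myh7, Tnnc1 and Tnnc2 included, together made up 8154, 8076 and 7655 CPM in bergapten skin. They made up 8306, 10530 and 10040 CPM in IMQ skin, against 25940, 27550 and 27980 CPM in vaseline skin. Of the 25 tested 2, Casq1 and Ckmt2, were higher and 5 lower (28% called, against 4.83% of all genes tested). The median was -0.13. In bulk RNA, fewer cells of a type and less RNA per cell cannot be told apart. Acta1, skeletal actin, had 1677, 1653 and 1599 CPM in bergapten skin, 1166, 1726 and 1373 CPM in IMQ skin and 6256, 6413 and 6804 CPM in vaseline skin. Acta1 had a log2 fold change of 0.21 (edgeR adjusted p = 0.363), and Ckm, muscle creatine kinase, differed by -0.16 (edgeR adjusted p = 0.54).

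Aqp4, Ky and Casq1, which muscle expresses, rose, while the muscle calcium pump Atp2a1 fell. Aqp4, the water channel of fast muscle fibres and astrocytes (ENSMUSG00000024411, GRCm39 chromosome 18, 15522553 to 15544039, minus strand), had 5.62, 5.37 and 7.6 CPM in bergapten skin, 0.104, 0.539 and 0.152 CPM in IMQ skin and 22.4, 31.4 and 31.3 CPM in vaseline skin. Bergapten skin lay far above the IMQ libraries, which held few reads of it, and it rose by 4.53 (SE 0.40, edgeR adjusted p = 0.00139). Ky, a muscle protease-like protein needed for muscle growth in mice (ENSMUSG00000035606, GRCm39 chromosome 9, 102382949 to 102423438, plus strand), had 41.6, 26.1 and 33.4 CPM in bergapten skin, 2.29, 0.539 and 3.4 CPM in IMQ skin and 122, 138 and 131 CPM in vaseline skin. Ky rose by 4.0 (SE 0.43, edgeR adjusted p = 0.00492). Casq1, which stores calcium in the sarcoplasmic reticulum (ENSMUSG00000007122, GRCm39 chromosome 1, 172037461 to 172047435, minus strand), had 64.5, 46.8 and 64.3 CPM in bergapten skin, 12.1, 5.88 and 10.7 CPM in IMQ skin and 283, 308 and 283 CPM in vaseline skin. Casq1 rose by 2.61 (SE 0.24, edgeR adjusted p = 0.00188). In each of these genes bergapten skin lay between the other groups, well below vaseline skin. Sypl2, of the junctions between surface and calcium store, rose by 2.51, the membrane protein gene Tmem233 by 3.02, the calcium-dependent kinase Camk2a by 1.86 and the mitochondrial creatine kinase Ckmt2 by 1.31 (edgeR adjusted p = 0.0035, 0.00227, 0.00181 and 0.0129). All but Ckmt2 were called in each fit that left out a library, and Ckmt2 was lost only without bergapten replicate 3 (adjusted p = 0.059). Mstn, the muscle growth inhibitor myostatin, of the glucocorticoid and atrophy list, rose by 1.18 (edgeR adjusted p = 0.0438) but kept its call among the 9 fits only without bergapten replicate 2 (up to 0.146).

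Myh4, the myosin heavy chain of the fastest fibres (ENSMUSG00000057003, GRCm39 chromosome 11, 67128855 to 67151272, plus strand), went the other way, with 487, 404 and 351 CPM in bergapten skin, 1037, 1288 and 1781 CPM in IMQ skin and 2490.4, 3316 and 2762 CPM in vaseline skin. It was lower in IMQ than in vaseline skin and lower again in all bergapten libraries, falling by 1.73 (SE 0.21, edgeR adjusted p = 0.00492; called in all 9 fits). Fast troponin I (Tnni2) fell by 0.67 (edgeR adjusted p = 0.0126), the intermediate filament desmin (Des) by 0.57 (edgeR adjusted p = 0.0149), the Z-disc protein myotilin (Myot) by 0.88 (edgeR adjusted p = 0.0373) and the calcium pump Atp2a1 by 0.48 (edgeR adjusted p = 0.0313). Des was lost without bergapten replicate 1 or 3 (up to 0.0727), Myot kept its call among the 9 fits only without any 1 IMQ replicate (up to 0.137) and Atp2a1 kept its call among the 9 fits only without any 1 IMQ replicate (up to 0.125). Bnip3, a mitophagy receptor, had 20.6, 29.3 and 27.2 CPM in bergapten skin, 71.8, 114 and 63.5 CPM in IMQ skin and 37, 32 and 37 CPM in vaseline skin. Bnip3 fell by 1.69 (edgeR adjusted p = 0.00667), in all 9 fits. Of genes chosen after their values were seen, the fatty acid carrier Fabp3 had 9.92, 10.2 and 10.8 CPM in bergapten skin and 31.5, 38.4 and 30.3 CPM in IMQ skin. Fabp3 fell by 1.7 (edgeR adjusted p = 0.000982), and the muscle myosin kinase Mylk2 fell by 1.59 (edgeR adjusted p = 0.00633).

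Genes of MHC class II presentation, Cd74 and H2-DMa among them, rose in bergapten skin. The class II molecules display peptides to CD4 T cells, Cd74 escorts them, H2-DM loads the peptide, and Ciita is the coactivator that switches the genes on. Of 13 genes 7 rose and 0 fell (53.85% called, against 4.83% of all genes tested), with a median of 1.06. Ciita (ENSMUSG00000022504, GRCm39 chromosome 16, 10297923 to 10346282, plus strand) had 66.4, 53.4 and 53.6 CPM in bergapten skin, 16.1, 9.0 and 28.4 CPM in IMQ skin and 40.6, 31.7 and 33.8 CPM in vaseline skin. Ciita rose by 1.7 (SE 0.35, edgeR adjusted p = 0.036). Its IMQ libraries spread over 3-fold and replicate 3 lay nearest to the gel group, and the gene kept its call among the 9 fits only without IMQ replicate 2 or 3 (up to 0.122).

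H2-DMa, a chain of the peptide loader (ENSMUSG00000037649, GRCm39 chromosome 17, 34338515 to 34358075, plus strand), had 80.1, 75.1 and 65.6 CPM in bergapten skin, 36.4, 29.1 and 36.3 CPM in IMQ skin and 58.5, 63.2 and 62.9 CPM in vaseline skin. Its groups were tight, with bergapten skin above the others, and it rose by 1.12 (SE 0.11, edgeR adjusted p = 0.00188). Cd74, the invariant chain, stood at 1124, 874 and 834 CPM in bergapten skin, 392, 362 and 551 CPM in IMQ skin and 1082, 1042 and 1170 CPM in vaseline skin, with IMQ replicate 3 the highest of its group. H2-Eb1 (ENSMUSG00000060586), a beta chain, had 336, 247 and 250.1 CPM in bergapten skin, 122, 91.4 and 164 CPM in IMQ skin and 305, 312 and 312 CPM in vaseline skin. H2-Eb1 rose by 1.14 (SE 0.20, edgeR adjusted p = 0.0173). The other chains H2-Ab1 and H2-Aa rose by 1.06 and 1.02 (edgeR adjusted p = 0.0154 and 0.0219), H2-DMb1 by 1.1 (edgeR adjusted p = 0.0247), and H2-Ea, which is outside the list, by 1.01 (edgeR adjusted p = 0.0111). The class II genes are similar copies that may share reads. H2-DMa and Cd74 of the list were called in all 9 fits that left out a library, as was H2-Ea. The chains H2-Eb1 and H2-Ab1 were lost without bergapten replicate 1 or 3 (up to 0.0759 and 0.0705), H2-Aa without IMQ replicate 1 or bergapten replicate 1 or 2 (up to 0.0871), and H2-DMb1 without bergapten replicate 1 or 2 or vaseline replicate 3 (up to 0.108). In the 6-library fit only H2-DMa of the list passed. Of 16 MHC class I genes edgeR called 0 (1 by DESeq2, 0 by limma voom and 1 at an unadjusted edgeR p under 0.05), with a median of -0.09, and H2-K1 stood at -0.12 (edgeR adjusted p = 0.595).

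The promoter of H2-Eb1 is shown for its Y boxes, the CCAAT letters bound by factor NF-Y in class II promoters, which lie near the start on both strands. The RefSeq window is chr17:34305617-34305916 on GRCm38.p6, plus strand, and capitals mark CCAAT or its reverse complement.
H2-Eb1: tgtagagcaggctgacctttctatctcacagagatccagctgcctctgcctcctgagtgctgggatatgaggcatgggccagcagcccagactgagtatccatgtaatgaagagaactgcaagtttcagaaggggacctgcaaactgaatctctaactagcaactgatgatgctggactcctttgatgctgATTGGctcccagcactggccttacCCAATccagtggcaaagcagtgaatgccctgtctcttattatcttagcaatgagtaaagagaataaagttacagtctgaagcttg
These letters occur on either strand in 8 of the 10 list members tested that have a promoter in the table, and in 37.408% of all promoters.

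Some dendritic cell genes rose as well, and of these Sirpa and Itgax were called in all 9 fits that left out a library. Of 22 genes of conventional dendritic cells 6 rose and 0 fell (27.27% called, against 4.83% of all genes tested). The median was 0.41. Sirpa, an inhibitory receptor of myeloid cells, had 328, 363 and 358 CPM in bergapten skin, 219.9, 174 and 200.3 CPM in IMQ skin and 149, 161 and 153 CPM in vaseline skin, above both other groups, and rose by 0.82 (SE 0.10, edgeR adjusted p = 0.0036). Itgax, which encodes CD11c, had 24.7, 28.9 and 25.3 CPM in bergapten skin, 16.8, 15.4 and 15.4 CPM in IMQ skin and 17.3, 15.9 and 16.9 CPM in vaseline skin. Itgax rose by 0.73 (edgeR adjusted p = 0.00768). Irf8, a transcription factor of the XCR1 lineage, rose by 0.52, Itgae, encoding CD103, by 0.73, the chemokine receptor Xcr1 by 1.62 and the lectin Mgl2 by 1.5 (edgeR adjusted p = 0.0236, 0.0368, 0.0442 and 0.0313). Irf8 lost its call without any 1 bergapten replicate (adjusted p up to 0.104), Itgae kept its call among the 9 fits only without IMQ replicate 3 (up to 0.124), Xcr1 kept its call among the 9 fits only without IMQ replicate 2 or 3 (up to 0.145) and Mgl2 kept its call among the 9 fits only without bergapten replicate 3 or any 1 IMQ replicate (up to 0.112). Siglech, a lectin of plasmacytoid dendritic cells, rose by 1.36 (edgeR adjusted p = 0.0197; up to 0.0873 without bergapten replicate 1 or 2); of the 9 genes of that list 1 rose and 1 fell, the mitochondrial subunit gene Cox6a2, which muscle also expresses. Cox6a2 kept its call among the 9 fits only without IMQ replicate 3 (up to 0.137). Of the plasmacytoid list 22.22% was called. Of 10 Langerhans cell genes edgeR called 0 (2 by DESeq2, 1 by limma voom and 3 at an unadjusted edgeR p under 0.05). Their lectin Cd207, langerin, had 32, 35.8 and 26.5 CPM in bergapten skin, 11.1, 4.42 and 18.6 CPM in IMQ skin and 37.9, 31.1 and 35.5 CPM in vaseline skin; bergapten skin lay near vaseline skin and did not overlap IMQ skin, with a log2 fold change of 1.46 that missed the threshold (SE 0.41, edgeR adjusted p = 0.0864). Ptprc, the common leukocyte antigen, differed by 0.66 (edgeR adjusted p = 0.054), and how far the number of leukocytes enters these rises was not tested.

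Of lymphocyte genes, 4% of the alpha-beta T cell list, 8.33% of the cytotoxic cell list and 16.67% of the B cell list were called. The share was 0% for gamma-delta T cells and 4.83% for all genes tested. Of 25 alpha-beta T cell genes only Cd4, the co-receptor of helper T cells, was called: it had 22, 17.3 and 18.7 CPM in bergapten skin, 4.99, 6.15 and 7.42 CPM in IMQ skin and 7.4, 5.43 and 4.1 CPM in vaseline skin, so that IMQ and vaseline skin overlapped and bergapten skin lay above both, and it rose by 1.64 (SE 0.23, edgeR adjusted p = 0.00657). Some myeloid cells also carry it. The list had a median of 0.06, and the co-stimulator Cd28, with 1.14, was not called (edgeR adjusted p = 0.0958). Gzmc, a granzyme of cytotoxic cells (ENSMUSG00000079186, GRCm39 chromosome 14, 56468898 to 56472113, minus strand), had 48.7, 53.9 and 44.5 CPM in bergapten skin, 11.2, 7.49 and 7.47 CPM in IMQ skin and 39.3, 36.7 and 44 CPM in vaseline skin. Its IMQ libraries alone were low, and it rose by 2.49 (SE 0.17, edgeR adjusted p = 0.00064). Granzymes A and B were not called, with -1.0 and -1.06 (edgeR adjusted p = 0.247 and 0.264). Of B cell genes, the immunoglobulin M constant region Ighm rose by 1.24 and that of immunoglobulin D, Ighd, by 1.75 (edgeR adjusted p = 0.00188 and 0.0126), 2 of 12; Ighd was lost without bergapten replicate 1 (adjusted p = 0.0594), whereas Cd4, Gzmc and Ighm were called in all 9 fits. Of 12 gamma-delta T cell genes edgeR called 0 (1 by DESeq2, 0 by limma voom and 1 at an unadjusted edgeR p under 0.05), with a median of -0.02, and 0 in each fit without 1 of the 6 compared libraries. The migration receptor Cxcr3 rose by 1.24 and the monocyte receptor Ccr2 by 0.76 (edgeR adjusted p = 0.0384 and 0.0194), but Cxcr3 kept its call among the 9 fits only without IMQ replicate 1 or 3 (up to 0.141) and Ccr2 lost its call without any 1 bergapten replicate (up to 0.0885). Csf2ra, the receptor chain for the growth factor GM-CSF, Myo1f, a leukocyte myosin, and Il10ra, the receptor for IL-10, were chosen after their values were seen and rose by 1.06, 1.01 and 0.71 (edgeR adjusted p = 0.00493, 0.00188 and 0.0235); Il10ra lost its call without any 1 bergapten replicate (up to 0.0953).

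Cxcl2, Cxcl3 and Ppbp, of the chemokines that attract neutrophils, were lower in bergapten skin. Of 9 genes of this axis 3 fell (33.33% called, against 4.83% of all genes tested). All 9 had a negative log2 fold change, and the median was -2.09. Cxcl2, a ligand of the neutrophil receptor CXCR2 (ENSMUSG00000058427), had 0.836, 3.98 and 3.01 CPM in bergapten skin, 30.6, 20.5 and 26.1 CPM in IMQ skin and 0.11, 0.392 and 2.62 CPM in vaseline skin. Every IMQ library lay far above every bergapten and vaseline library, and Cxcl2 fell by 3.28 (SE 0.75, edgeR adjusted p = 0.0497), a call at the threshold that held among the 9 fits only without vaseline replicate 1 or 3 (up to 0.157). Cxcl3 (ENSMUSG00000029379), of the same chemokine cluster on chromosome 5 and another ligand of CXCR2, had 0.717, 1.29 and 0.714 CPM in bergapten skin, 12.6, 4.8 and 7.16 CPM in IMQ skin and 0.11, 0 and 0 CPM in vaseline skin. Cxcl3 fell by 3.16 (SE 0.47, edgeR adjusted p = 0.00856; up to 0.0594 without bergapten replicate 1 or 3). Ppbp, the platelet chemokine, fell by 2.28 at a level near 1 CPM or lower in all groups (edgeR adjusted p = 0.0243; up to 0.0869 without any 1 bergapten replicate). Not called were Cxcl1, with 1.73, 5.86 and 4.23 CPM in bergapten skin and 29.1, 10.4 and 11.3 CPM in IMQ skin (edgeR adjusted p = 0.0826), Csf3, the granulocyte growth factor, with -3.09 (edgeR adjusted p = 0.0541), and the receptor Cxcr2 with -0.27 (edgeR adjusted p = 0.704).

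The promoters of the chemokine genes Cxcl2 and Cxcl3 are shown with their NF-kappaB letters, searched as GGG, 2 bases of any kind and TTTCC on both strands. They are RefSeq windows on GRCm38.p6, plus strand, at chr5:90903649-90903948 for Cxcl2 and chr5:90785851-90786150 for Cxcl3, and capitals mark the matches.
Cxcl2: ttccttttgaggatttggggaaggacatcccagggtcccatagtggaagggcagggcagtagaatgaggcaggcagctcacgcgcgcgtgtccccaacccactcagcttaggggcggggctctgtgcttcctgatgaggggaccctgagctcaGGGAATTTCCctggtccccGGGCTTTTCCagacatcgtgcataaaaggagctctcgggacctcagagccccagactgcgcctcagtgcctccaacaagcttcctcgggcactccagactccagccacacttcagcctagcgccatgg
Cxcl3: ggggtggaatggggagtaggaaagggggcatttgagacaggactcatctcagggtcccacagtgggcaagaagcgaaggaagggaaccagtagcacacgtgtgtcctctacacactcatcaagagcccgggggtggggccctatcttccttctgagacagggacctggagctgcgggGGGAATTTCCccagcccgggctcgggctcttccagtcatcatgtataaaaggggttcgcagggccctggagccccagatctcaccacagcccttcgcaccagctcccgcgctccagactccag
Cxcl2 holds the letters at bases 154 and 173 of its window and Cxcl3 at base 178. Of 7 list members tested that have a promoter in the table, Cxcl1, Cxcl2 and Cxcl3 hold them, against 1.629% of all promoters. NF-kappaB feedback and target genes as a list had a median of -0.04. Of these 20 genes 2 were called lower (10%, against 4.83% called of all genes tested).

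Neutrophil genes had mostly negative fold changes. Of 25 genes 3 fell and 0 rose (12% called, against 4.83% of all genes tested). Of the list 23 had a negative log2 fold change, and the median was -0.87. Clec4d, a C-type lectin of neutrophils and monocytes (ENSMUSG00000030144, GRCm39 chromosome 6, 123239070 to 123252224, plus strand), had 4.84, 7.95 and 8.26 CPM in bergapten skin, 31.3, 22.3 and 18.3 CPM in IMQ skin and 0.822, 0.654 and 0.951 CPM in vaseline skin. Clec4d fell by 1.77 (SE 0.25, edgeR adjusted p = 0.00711) and stayed well above vaseline skin. Il1r2, the decoy receptor for IL-1, had 30.6, 41.4 and 36.2 CPM in bergapten skin, 103, 91.5 and 65.6 CPM in IMQ skin and 101, 125 and 106 CPM in vaseline skin. Il1r2 fell by 1.26 (SE 0.17, edgeR adjusted p = 0.00686). Unlike Clec4d, it was as high in vaseline skin as in IMQ skin or higher, and which cells its reads came from was not tested. Clec4d and Il1r2 were called in all 9 fits that left out a library. Retnlg, a resistin-like secreted protein, was highest by far in IMQ replicate 1: it had 2.93, 2.04 and 3.06 CPM in bergapten skin, 72.8, 13.9 and 13.6 CPM in IMQ skin and 1.43, 3.4 and 2.26 CPM in vaseline skin. Retnlg fell by 3.64 (edgeR adjusted p = 0.0369), a call that held among the 9 fits only without any 1 IMQ replicate (up to 0.127). The calprotectin genes S100a8 and S100a9, the bulk of the list's reads, overlapped, S100a8 with 854, 1896 and 2088 CPM in bergapten skin and 2672, 1339 and 3128 CPM in IMQ skin (log2 fold change -0.56, edgeR adjusted p = 0.456) and S100a9 with a log2 fold change of -0.45 (edgeR adjusted p = 0.567). Without IMQ replicate 2, whose neutrophil genes were the lowest of its group, 8 of the list were called.

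Ccl6, Clec10a and other genes of resident macrophages were lower in bergapten skin. Of 22 genes 6 were lower (27.27% called, against 4.83% of all genes tested), with a median of -0.40. Ccl6 (ENSMUSG00000018927, GRCm39 chromosome 11, 83478708 to 83483913, minus strand), a chemokine of mouse macrophages, had 53.4, 72.8 and 61.5 CPM in bergapten skin, 268, 214 and 132 CPM in IMQ skin and 149.8, 215 and 142 CPM in vaseline skin. Ccl6 fell by 1.71 (SE 0.27, edgeR adjusted p = 0.0154), to below vaseline skin. Its relative Ccl9 fell by 1.49, the lectin Clec10a by 0.98, the hyaluronan receptor Lyve1 by 1.49, the haemoglobin scavenger receptor Cd163 by 0.95 and Gas6, a ligand for the uptake of dying cells, by 0.75 (edgeR adjusted p = 0.0228, 0.0108, 0.0274, 0.0355 and 0.0115). Clec10a was called in all 9 fits that left out a library, and Gas6 in all but that without bergapten replicate 3 (adjusted p = 0.0527). Ccl6 was lost without bergapten replicate 1 or 3 (up to 0.0771); Ccl9 lost its call without bergapten replicate 1 or 3 or IMQ replicate 2 (up to 0.101), Lyve1 kept its call among the 9 fits only without IMQ replicate 1 or 3 or vaseline replicate 2 or 3 (up to 0.114) and Cd163 kept its call among the 9 fits only without bergapten replicate 2 or IMQ replicate 3 (up to 0.133). The mannose receptor Mrc1 and the complement gene C1qb were not called, with -0.13 and -0.22 (edgeR adjusted p = 0.48 and 0.423). Of 24 inflammatory monocyte genes 1 rose and 1 fell (median -0.17). The gene that fell was the clotting factor subunit F13a1, by 0.85 (edgeR adjusted p = 0.0324), and it kept its call among the 9 fits only without IMQ replicate 1 or 3 or vaseline replicate 2 (up to 0.126). Of 13 mast cell and basophil genes 2 fell, the tryptase Tpsb2 by 0.95 (edgeR adjusted p = 0.0247; up to 0.109 without bergapten replicate 1 or 3) and the granule proteoglycan Srgn by 0.65 (edgeR adjusted p = 0.0442). Srgn kept its call among the 9 fits only without IMQ replicate 2 (up to 0.124). With all libraries 8.33% of the inflammatory monocyte list and 15.38% of the mast cell and basophil list were called. Without bergapten replicate 1 edgeR called 0 genes of either list.

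Vcam1 and Flt1 fell among endothelial genes. Of the endothelial list 18.18% was called, against 4.83% of all genes tested. Vcam1 is the ligand of leukocyte integrin VLA-4 (ENSMUSG00000027962, GRCm39 chromosome 3, 115903598 to 115923337, minus strand). It had 38.8, 42.3 and 34.2 CPM in bergapten skin, 164, 193 and 92 CPM in IMQ skin and 13.5, 13.4 and 10.8 CPM in vaseline skin, so that IMQ replicate 3 lay nearest to the gel group and all challenged libraries stood above vaseline skin. Vcam1 fell by 1.96 (SE 0.25, edgeR adjusted p = 0.00638). Flt1, a receptor of vascular endothelial growth factor, had 44, 47.7 and 45 CPM in bergapten skin, 76.9, 76.2 and 69.3 CPM in IMQ skin and 45.1, 44.2 and 44.3 CPM in vaseline skin. Flt1 fell by 0.70 (SE 0.08, edgeR adjusted p = 0.00242), to the vaseline level. Both were called in all 9 fits that left out a library. Emcn, endomucin, fell by 0.57 (edgeR adjusted p = 0.0369; it kept its call among the 9 fits only without bergapten replicate 2 or IMQ replicate 3, up to 0.12), and of 22 genes 4 fell in all, Lyve1 included. The general endothelial markers Pecam1 and Cdh5 had -0.49 and -0.40 (edgeR adjusted p = 0.0765 and 0.0767), and Icam1, another adhesion ligand, 0.00 (edgeR adjusted p = 0.992). Masp1, a protease of the complement lectin pathway, fell by 1.22 (edgeR adjusted p = 0.00188).

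The IL-23 and IL-17 axis, the pathway that drives psoriasis, gave low and scattered counts. Il17a had 1.19, 1.14 and 0.612 CPM in bergapten skin, 7.12, 0.916 and 18 CPM in IMQ skin and 0.219, 0.0654 and 0.0594 CPM in vaseline skin: IMQ replicate 2 lay inside the bergapten range and IMQ replicates 1 and 3 far above it. Its log2 fold change was -3.14 (SE 0.90, edgeR adjusted p = 0.0883), which the test did not call. Among the 9 fits Il17a was called only without IMQ replicate 2 (edgeR adjusted p = 0.00234). With all libraries DESeq2 called it (adjusted p = 0.00157) and limma voom did not (adjusted p = 0.254). Il17f had 1.37, 2.78 and 2.8 CPM in bergapten skin, 7.74, 1.83 and 19.1 CPM in IMQ skin and 0.164, 0 and 0 CPM in vaseline skin (log2 fold change -2.03, edgeR adjusted p = 0.166), with the same IMQ library low. Without that library Il17f was called (edgeR adjusted p = 0.022). Il22 and Il23a had -1.38 and -1.22 (edgeR adjusted p = 0.353 and 0.178). Of 20 genes only the epithelial cytokine Il17c was called (5% of the list, near the 4.83% of all genes tested). It had 0.896, 0.596 and 0.459 CPM in bergapten skin and 3.22, 1.46 and 1.93 CPM in IMQ skin. In vaseline skin it had 0.0548, 0.196 and 0.119 CPM. Il17c fell by 1.76 (edgeR adjusted p = 0.0456), a call that held among the 9 fits only without IMQ replicate 2 or 3 (up to 0.164). Without IMQ replicate 2, 3 genes of the axis were called, all lower in bergapten skin. Oncostatin M, Osm, with -1.73, missed the threshold (edgeR adjusted p = 0.0537; 0.0454 in the 6-library fit), while its receptor Osmr fell by 0.55 (edgeR adjusted p = 0.0263; up to 0.101 without bergapten replicate 1 or 3). The IL-36 gene Il1f6 had 131, 162 and 141 CPM in bergapten skin, 153, 129 and 142 CPM in IMQ skin and 1.21, 1.24 and 0.416 CPM in vaseline skin, nearly equal in both challenged groups (log2 fold change 0.04, SE 0.17, edgeR adjusted p = 0.929). The IL-1 receptor Il1r1 fell by 0.54 (edgeR adjusted p = 0.0179; up to 0.0767 without bergapten replicate 1 or 2). Tyk2, the kinase below the IL-12, IL-23 and interferon receptors, had 67.1, 64.4 and 61.6 CPM in bergapten skin and 45.3, 45.7 and 47.7 CPM in IMQ skin. Tyk2 rose by 0.48 (edgeR adjusted p = 0.00961; 0.0589 without bergapten replicate 1).

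Most keratinocyte stress genes, Krt16 and Krt6a included, were not called. Krt16 had 1507, 2147 and 2201 CPM in bergapten skin, 2439, 1077 and 3072 CPM in IMQ skin and 7.46, 3.99 and 4.58 CPM in vaseline skin, both challenged groups far above vaseline skin and overlapping each other (log2 fold change -0.17, SE 0.37, edgeR adjusted p = 0.834). Krt6a, its partner keratin, had 305, 604 and 679 CPM in bergapten skin and 872, 433 and 1047 CPM in IMQ skin (log2 fold change -0.57, edgeR adjusted p = 0.438). Of the 29 genes of that list 1 was called, the cross-linking enzyme Tgm1, which fell by 0.58 (edgeR adjusted p = 0.0225; up to 0.0778 without bergapten replicate 1 or 3), and of 30 differentiation genes 1 rose, repetin (Rptn), with 456, 420.4 and 397 CPM in bergapten skin, 292, 257 and 253 CPM in IMQ skin and 45.1, 55.6 and 44.4 CPM in vaseline skin and a rise of 0.67 (edgeR adjusted p = 0.0124; 0.0647 without bergapten replicate 1). Among basal genes Cdh3, P-cadherin, had 61.6, 65 and 67.3 CPM in bergapten skin, 90.5, 102 and 113 CPM in IMQ skin and 26.7, 24.4 and 26.5 CPM in vaseline skin. Cdh3 fell by 0.66 (SE 0.09, edgeR adjusted p = 0.00714, called in all 9 fits). The laminin receptor chain Itga3, the epidermal master factor Trp63 and the growth factor receptor Egfr fell by 0.72, 0.39 and 0.39 (edgeR adjusted p = 0.0152, 0.0368 and 0.0332), making 4 of 15 basal genes that fell. Itga3 lost its call without bergapten replicate 1 or 2 (up to 0.0655), Trp63 kept its call among the 9 fits only without IMQ replicate 2 or 3 or vaseline replicate 2 (up to 0.13) and Egfr kept its call among the 9 fits only without IMQ replicate 2 or 3 or vaseline replicate 2 or 3 (up to 0.129). Krt5 and Krt14 of the same layer were not called, with 0.28 and 0.05 (edgeR adjusted p = 0.173 and 0.909). Called members made up 26.67% of the basal list and 25% of the list of Egfr and its ligand family. The share was 3.45% for stress genes, 3.33% for differentiation genes and 4.83% for all genes tested. The Egfr ligand Tgfa had 28.6, 45.5 and 42.5 CPM in bergapten skin, 76.7, 73.5 and 71.6 CPM in IMQ skin and 17.8, 13.9 and 16.3 CPM in vaseline skin. Tgfa fell by 0.93 (edgeR adjusted p = 0.0155; 0.0528 without bergapten replicate 3), and neuregulin 1, Nrg1, fell by 1.57 (edgeR adjusted p = 0.0383; it kept its call among the 9 fits only without IMQ replicate 2 or vaseline replicate 2, up to 0.139); with Egfr these were 3 of 12 genes of the family.

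Some gene groups stood apart in a single IMQ library. Hair follicle keratins stood out in IMQ replicate 3: Krt71, of the inner root sheath, had 0.717, 0.447 and 1.99 CPM in bergapten skin, 0.468, 0.862 and 253 CPM in IMQ skin and 0.329, 0.392 and 0.178 CPM in vaseline skin, and Tchh, trichohyalin, 12.2, 13.9 and 19.4 CPM in bergapten skin, 14.8, 10.5 and 309 CPM in IMQ skin and 8.61, 8.3 and 9.63 CPM in vaseline skin. Of 13 hair follicle genes edgeR called 0 (0 by DESeq2, 0 by limma voom and 2 at an unadjusted edgeR p under 0.05), and their median of -2.44 was 0.87 without IMQ replicate 3. Sprr4, a cornified envelope precursor, stood out in IMQ replicate 2, with 1.02, 6.41 and 2.09 CPM in bergapten skin, 3.48, 549.8 and 1.07 CPM in IMQ skin and 66.9, 58.1 and 53.4 CPM in vaseline skin (edgeR adjusted p = 0.179). Interferon-stimulated genes were high in IMQ replicate 3 and low in replicate 2: Mx2, an antiviral GTPase, had 2.63, 1.94 and 1.73 CPM in bergapten skin, 4.0, 3.23 and 10.4 CPM in IMQ skin and 6.74, 5.36 and 5.11 CPM in vaseline skin and was not called (edgeR adjusted p = 0.0748). Of 27 type I interferon-stimulated genes 2 fell (7.41% called, near the 4.83% of all genes tested). Their median was -0.99 and ran from -1.47 without IMQ replicate 2 to -0.16 without IMQ replicate 3. The called ones were the deconjugating enzyme Usp18, which fell by 1.33 (edgeR adjusted p = 0.0225; up to 0.0838 without any 1 bergapten replicate), and Rsad2, viperin, by 1.43 (edgeR adjusted p = 0.041; it kept its call among the 9 fits only without any 1 IMQ replicate, up to 0.15). Over the fits without 1 of the 6 compared libraries, 0 to 9 of the type I list were called. Among 17 genes induced by interferon gamma, Ciita alone was called (5.88%, near the 4.83% of all genes tested). Without IMQ replicate 2, 12 of these were called, 11 of them lower in bergapten skin, and the list's median was -1.36, against -0.88 with it.

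Cell cycle genes were low in IMQ replicate 2. Of 32 genes edgeR called 0 (2 by DESeq2, 0 by limma voom and 16 at an unadjusted edgeR p under 0.05); 31 had a positive log2 fold change and the median was 0.68. The replication helicase subunit Mcm6 had 77.6, 62.9 and 81.4 CPM in bergapten skin, 49.2, 25.4 and 54.1 CPM in IMQ skin and 31.4, 23.7 and 24.8 CPM in vaseline skin, with IMQ replicate 2 near vaseline skin and the other challenged libraries above it (log2 fold change 0.79, edgeR adjusted p = 0.116). Without IMQ replicate 2 the median was 0.37. Globin genes, a sign of blood in the sample, were uneven too: Hbb-bs had 162, 54.2 and 83.5 CPM in bergapten skin, 65.4, 394 and 566 CPM in IMQ skin and 151, 187 and 314 CPM in vaseline skin (edgeR adjusted p = 0.225), and their part in the falls of leukocyte genes was not tested.

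**Figure D4:**
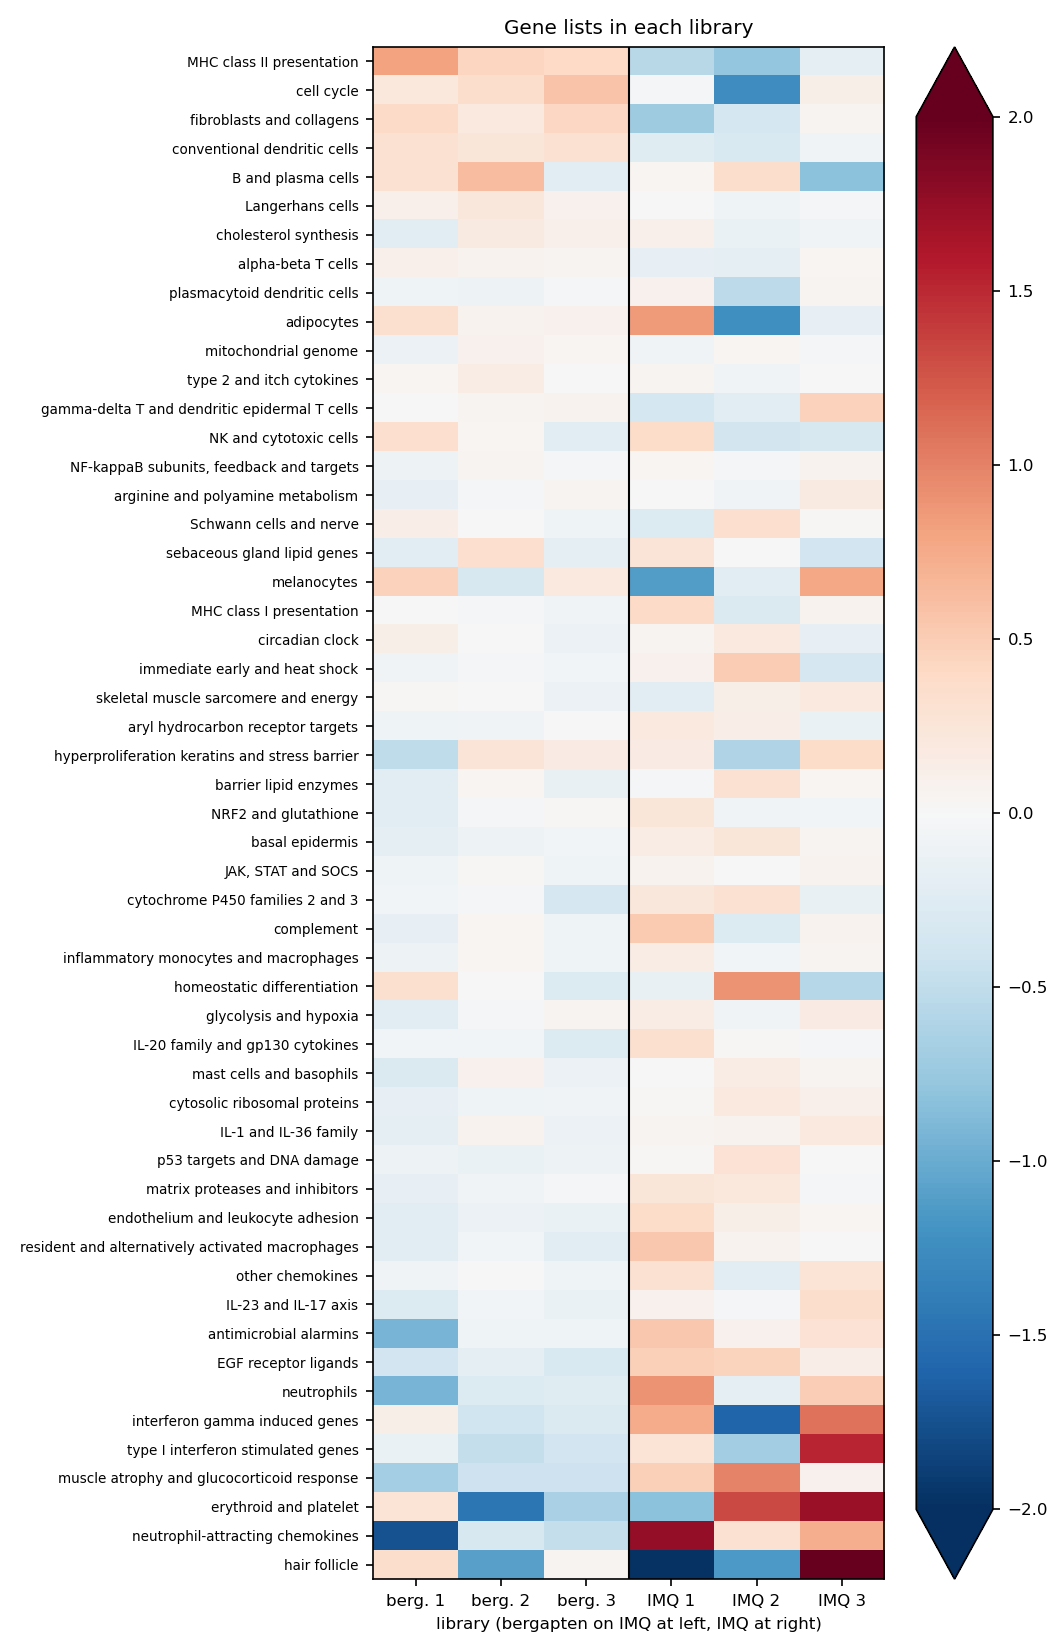
Gene lists (rows, ordered by median log2 fold change) in the 6 libraries, bergapten skin left of the line and IMQ skin right; colour is the median over list members of log2 CPM minus the mean of the 6 libraries. IMQ replicate 3 is high for hair follicle and interferon genes, and IMQ replicate 2 is low for cell cycle and interferon gamma genes. The glucocorticoid and MHC class II lists keep a sign within each group, as do others such as neutrophil-attracting chemokines and conventional dendritic cells.

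Vim, Thy1 and Dpt rose among fibroblast genes. Of 26 fibroblast genes 3 rose and 2 fell (19.23% called, against 4.83% of all genes tested). Of the list 22 had a positive log2 fold change, and the median was 0.67. Vim, the intermediate filament of mesenchymal cells, had 1748, 1670 and 1623 CPM in bergapten skin, 1154, 943 and 1069.5 CPM in IMQ skin and 1379, 1512 and 1531 CPM in vaseline skin, with bergapten skin above both other groups, and rose by 0.67 (SE 0.09, edgeR adjusted p = 0.00652). It was the only list member called in all 9 fits that left out a library. Thy1, a surface glycoprotein of fibroblasts and T cells, rose by 0.96 and the matrix protein dermatopontin (Dpt) by 0.51, whereas the collagen cross-linker Lox fell by 1.05 and the growth factor receptor Pdgfra by 0.43 (edgeR adjusted p = 0.0312, 0.0383, 0.0395 and 0.0347). Thy1 kept its call among the 9 fits only without IMQ replicate 2 or 3 or vaseline replicate 2 (up to 0.115), Dpt kept its call among the 9 fits only without IMQ replicate 3 or vaseline replicate 2 (up to 0.127), Lox kept its call among the 9 fits only without any 1 IMQ replicate (up to 0.14) and Pdgfra kept its call among the 9 fits only without IMQ replicate 2 or 3 or vaseline replicate 1 or 2 (up to 0.125). Type I collagen was not called and was spread widely in IMQ skin: Col1a1 had 9496, 6713 and 8964 CPM in bergapten skin and 1905, 3623 and 5726 CPM in IMQ skin, against 29777, 31049 and 29529 CPM in vaseline skin (log2 fold change 1.16, edgeR adjusted p = 0.0959). Without IMQ replicate 3, the nearest to bergapten skin in the median of this list, 17 list members were called, 2 of them lower. Sfrp4, a secreted inhibitor of Wnt signals, had 22.7, 21.4 and 22.4 CPM in bergapten skin, 5.82, 5.12 and 8.38 CPM in IMQ skin and 166, 223 and 177 CPM in vaseline skin. Sfrp4 rose by 1.78 (SE 0.18, edgeR adjusted p = 0.00188), in all 9 fits. The matrix protease Mmp3, stromelysin, had 238, 255 and 312 CPM in bergapten skin, 83.9, 51.3 and 127 CPM in IMQ skin and 204, 205 and 167 CPM in vaseline skin. Mmp3 rose by 1.62 (edgeR adjusted p = 0.023; it lost its call without any 1 bergapten replicate or IMQ replicate 1, up to 0.0876), and the aggrecanase Adamts4 fell by 0.95 (edgeR adjusted p = 0.0126; 0.0669 without bergapten replicate 1).

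Among lipid genes, Fasn rose and Plin4 and Pnpla2 fell. Fasn, fatty acid synthase, had 1536, 899 and 1047 CPM in bergapten skin, 459.6, 206 and 264 CPM in IMQ skin and 1783, 991 and 1092 CPM in vaseline skin. Fasn rose by 1.9 (SE 0.37, edgeR adjusted p = 0.0312), a call that held among the 9 fits only without IMQ replicate 1 or vaseline replicate 1 or 2 (up to 0.104). The lipid droplet coat gene Plin4 had 98.9, 137 and 120.4 CPM in bergapten skin, 308, 231 and 202 CPM in IMQ skin and 376, 400.1 and 381 CPM in vaseline skin. Plin4 fell by 1.06 (SE 0.16, edgeR adjusted p = 0.0104, called in all 9 fits). Pnpla2, the triglyceride lipase ATGL, fell by 1.16 and the fatty acid transporter Cd36 by 1.06 (edgeR adjusted p = 0.0136 and 0.0466); Pnpla2 lost its call without bergapten replicate 1 or 3 (up to 0.0648) and Cd36 kept its call among the 9 fits only without IMQ replicate 3 (up to 0.158). Adipoq, the adipocyte hormone, overlapped between the groups, with 109, 112 and 102 CPM in bergapten skin and 202, 51.4 and 107 CPM in IMQ skin (log2 fold change -0.15, edgeR adjusted p = 0.859). Of 18 adipocyte genes 3 fell and of 22 sebaceous genes 1, Fasn, rose and 1, the lipid droplet gene Plin2, fell. The called shares were 16.67% and 9.09%, against 4.83% of all genes tested. Plin2 kept its call among the 9 fits only without IMQ replicate 2 or 3 (up to 0.14).

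The clock genes Dbp, Per3 and Tef rose. In the circadian clock, PER and CRY proteins repress the factors that drive them; DBP, TEF and HLF then activate genes through the D box, which NFIL3 represses. Dbp (ENSMUSG00000059824, GRCm39 chromosome 7, 45354512 to 45359627, plus strand) had 50.7, 31.1 and 38 CPM in bergapten skin, 10.9, 9.33 and 15.5 CPM in IMQ skin and 130.3, 126 and 133 CPM in vaseline skin. Dbp rose by 1.74 (SE 0.21, edgeR adjusted p = 0.00492). Per3 (ENSMUSG00000028957) had 71, 45.1 and 53.6 CPM in bergapten skin, 23.4, 19.6 and 25.7 CPM in IMQ skin and 100.2, 73.7 and 84.7 CPM in vaseline skin. Per3 rose by 1.3 (SE 0.18, edgeR adjusted p = 0.00714). In both genes the gel group lay between the other groups without overlap, except that bergapten replicate 1 of Per3 came near the lowest vaseline library, and both were called in all 9 fits that left out a library. Tef rose by 0.61 and Nfil3 fell by 1.46 (edgeR adjusted p = 0.0384 and 0.0312); Tef kept its call among the 9 fits only without bergapten replicate 2, IMQ replicate 3 or vaseline replicate 1 or 2 (up to 0.144) and Nfil3 kept its call among the 9 fits only without any 1 IMQ replicate (up to 0.121). Of 18 clock genes 3 rose and 1 fell (22.22% called, against 4.83% of all genes tested). The core genes Per1, Per2 and Nr1d1 were not called, with -0.41, -0.12 and 0.17 (edgeR adjusted p = 0.487, 0.806 and 0.523). The hour at which each group was collected is not given in the labels, and its part in these differences was not tested.

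The Per3 promoter is shown for its D boxes, searched as TTATGTAA on both strands. The RefSeq window is chr4:151044616-151044915 on GRCm38.p6, minus strand, and capitals mark the matches, at bases 46 and 93.
Per3: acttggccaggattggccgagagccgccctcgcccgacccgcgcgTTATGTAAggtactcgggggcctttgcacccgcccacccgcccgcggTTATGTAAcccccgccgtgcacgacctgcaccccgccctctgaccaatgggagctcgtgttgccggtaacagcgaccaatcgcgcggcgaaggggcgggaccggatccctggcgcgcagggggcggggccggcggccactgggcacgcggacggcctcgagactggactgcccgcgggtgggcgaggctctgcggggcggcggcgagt
Of 15 clock genes tested that have a promoter in the table, Per3 alone holds these letters, as do 0.938% of all promoters.

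Xenobiotic genes were examined because furanocoumarins act on cytochrome P450 enzymes and on the aryl hydrocarbon receptor. Cyp1a1, the receptor's classic target, had 10.5, 25.4 and 14.8 CPM in bergapten skin, 18.3, 4.85 and 12.8 CPM in IMQ skin and 34.2, 30.6 and 26 CPM in vaseline skin, overlapping between the groups (log2 fold change 0.50, SE 0.47, edgeR adjusted p = 0.577). Cyp1b1, another target that is also expressed in fibroblasts, had 32.1, 41.5 and 30.6 CPM in bergapten skin, 107, 190.3 and 87.3 CPM in IMQ skin and 50.7, 56 and 64.3 CPM in vaseline skin. Cyp1b1 fell by 1.88 (SE 0.28, edgeR adjusted p = 0.0126; up to 0.0721 without bergapten replicate 1 or 3). Ahrr, the repressor of the receptor, rose by 0.92 (edgeR adjusted p = 0.042), but kept its call among the 9 fits only without IMQ replicate 3 (up to 0.161). These were the only called genes of 13, whose median was -0.14. The called share was 15.38% for that list, 13.33% for the wider cytochrome P450 list and 4.83% for all genes tested. Of 15 genes of the wider cytochrome P450 list 2 fell, Cyp2d22 by 1.43 and Cyp4b1 by 0.71 (edgeR adjusted p = 0.0184 and 0.0194; both lost without any 1 bergapten replicate, up to 0.0905 and 0.0871).

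In all, 109 of 934 distinct list members tested were called, against 869 of all 18005 genes (4.83%), and 9 of 53 lists had none. The lists were chosen with earlier results of these data known. Further lists follow, among them antimicrobial genes with 11.76% called and glycolysis and hypoxia genes with 16.67%. Of 17 antimicrobial genes 2, Defb1 and Rnase2a, fell, and without bergapten replicate 1 edgeR called 0. Defb1 lost its call without bergapten replicate 1 or 3 (up to 0.0806), and Rnase2a, with 0, 0.0994 and 0 CPM in bergapten skin and 0.883, 1.73 and 0.152 CPM in IMQ skin, kept its call among the 9 fits only without IMQ replicate 3 (up to 0.158). Lcn2, lipocalin 2, was not called at -1.22 (edgeR adjusted p = 0.113). Of 24 glycolysis and hypoxia genes 1 rose and 3 fell, with 1 called without bergapten replicate 1. Of 22 oxidative stress genes 1, catalase (Cat), fell, and of 21 barrier lipid enzymes 1, the ceramide synthase Cers3, fell. Of 22 immediate early and heat shock genes 1, Ier3, fell, and of 22 p53 targets 1, Gadd45b, fell. Cat and Gadd45b were each lost without any 1 bergapten replicate (up to 0.106 and 0.0966), Cers3 without bergapten replicate 1 or 3 (up to 0.0992), and Ier3 kept its call among the 9 fits only without IMQ replicate 1 or 3 or vaseline replicate 2 or 3 (up to 0.13). Of 30 ribosomal protein genes 27 had negative fold changes (median -0.22), and 2, Rpl18 and Rps3, fell, by 0.33 and 0.32 (edgeR adjusted p = 0.0453 and 0.0383). Rpl18 kept its call among the 9 fits only without IMQ replicate 1 or 3 (up to 0.153) and Rps3 kept its call among the 9 fits only without IMQ replicate 2 or 3 (up to 0.135). The 1 that rose, Rps2, did so by 0.76 and was called in all 9 fits (edgeR adjusted p = 0.00768). Of 11 genes of the mitochondrial genome and 9 melanocyte genes edgeR, DESeq2 and limma voom each called 0, with 0 at an unadjusted edgeR p under 0.05. Of 12 type 2 cytokine genes edgeR called 0 (1 by DESeq2, 0 by limma voom and 1 at an unadjusted edgeR p under 0.05), and of 20 arginine and polyamine genes 0 (1 by DESeq2, 0 by limma voom and 2 at an unadjusted edgeR p under 0.05). The nerve growth factor receptor Ngfr, of Schwann cells, rose by 1.05 as the only 1 of 14 nerve genes (edgeR adjusted p = 0.0108; 0.0589 without bergapten replicate 1). Outside the lists, Fcgbp, an IgG-binding mucin-like protein, had 45, 38.1 and 25.3 CPM in bergapten skin, 13.1, 10.7 and 7.82 CPM in IMQ skin and 229, 197 and 228 CPM in vaseline skin. Fcgbp rose by 1.77 (edgeR adjusted p = 0.00749), and Gpr141b and the transporter Abcg3 rose by 1.97 and 1.82 (edgeR adjusted p = 0.0102 and 0.00619), all 3 in each leave-one-out fit. Lyz1, a lysozyme whose reads may be shared with Lyz2, rose by 1.81 (edgeR adjusted p = 0.0389), but kept its call among the 9 fits only without vaseline replicate 2 or 3 (up to 0.131).

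**Figure D5:**
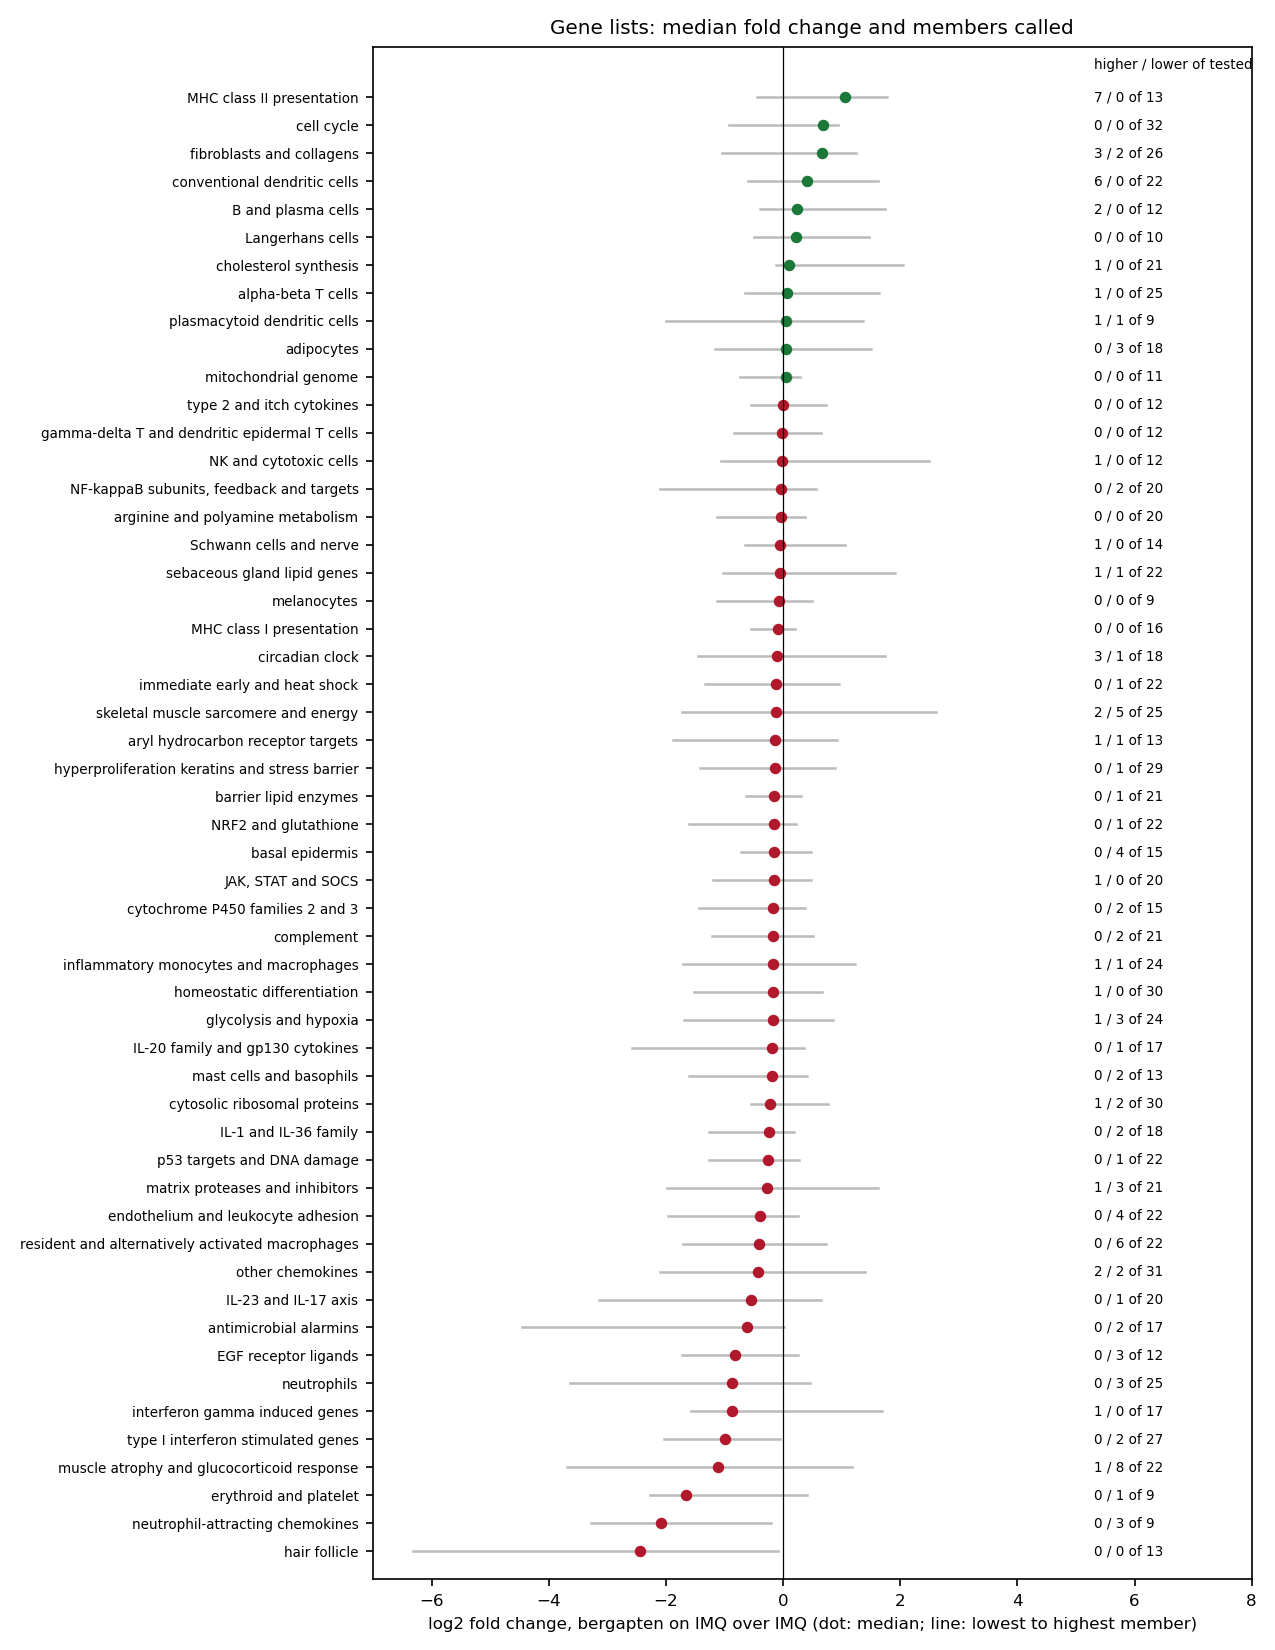
Median log2 fold change of bergapten over IMQ skin for each of the 53 gene lists (dots, green above 0 and red below) with the range from lowest to highest member (lines) and, at right, how many members were called higher and lower of those tested. MHC class II stands at the top with 7 of 13 higher, and the glucocorticoid and muscle atrophy list near the foot with 8 of 22 lower; the hair follicle list is lowest without a called member.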

How the data were processed

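RNA-seq of whole back skin was deposited as a table of read counts and FPKM per gene for 9 libraries. The authors' counts are raw reads per gene, per the file headers. The FPKM deposited by the authors rest on a gene length that the table does not give, and were not used. A quality sheet by the authors gives raw read counts, gigabases per library, the percent of GC and of bases above quality limits, and a mean quality score, per the file headers. HISAT2, HTSeq 0.6.0, Trimmomatic and the GRCm39 build are named in the submitters' processing notes, with no role stated. Of 56861 rows, 2 naming no gene were left out; 1443 were loci assembled by the authors.

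Genes were kept with edgeR's filter (minimum count 10, minimum total 15), which left 18005, scaled with TMM and tested with edgeR 4.0.16 in R 4.3.3 by a two-sided quasi-likelihood test on all 9 libraries in 1 group-means fit, contrast bergapten on IMQ minus IMQ, with Benjamini-Hochberg adjustment over all genes tested and a threshold of 0.05. Log2 fold changes are from that fit, and standard errors are the fold change over the square root of F. The script was tested on simulated data. Alternatives were DESeq2 1.42.0, RLE factors, limma 3.58.1 voom with a spread for each group, other filters, the 6 compared libraries alone, a replicate block and leaving out each library. No pair of replicates had identical counts.

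Named genes were the 12 largest rises and 12 largest falls called in both the 9- and 6-library fits at a mean of at least 1 CPM, the 6 largest rises and 6 largest falls in mean CPM, up to 3 members of each of 53 lists by smallest p, some fixed pathway genes, and the 6 genes with the widest IMQ spread at a mean of at least 10 CPM. Other list members and genes were named after their values were seen. The comparison, lists and rules were chosen with earlier results of these data known. Of the list members, 6 did not match a gene and 53 had too few reads to be tested. Promoter windows are RefSeq's, on GRCm38.p6, matched by symbol. Some results are not reported here.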

Additional observations from a re-analysis of the deposited data

How the results depend on the processing

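The count of called genes (869, with 392 higher and 477 lower in bergapten skin) depended on the test. DESeq2 called 1850 (879 higher, 971 lower), limma voom with a spread for each group 518 (199 higher) and the fit of the 6 compared libraries 130 (53 higher, 77 lower). Leaving out 1 library gave 139 to 1711 called genes, 65 to 723 higher and 74 to 988 lower. RLE factors (874), a minimum count of 30 (859) and no filter (1044) stayed within 1.5 times; the causes were not tested. The median log2 fold change of all genes tested moved by less than 0.1 under every setting. A replicate block called 489 genes (205 higher, 284 lower). After each group's mean log2 CPM was subtracted, the deviations of same-numbered bergapten and IMQ libraries correlated at -0.062, 0.067 and 0.176. In replicate 2 another number reached 0.115, so the numbers were not taken to pair the libraries.

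Called genes among those named kept their direction under every alternative tried. Uncalled ones changed sign in some fit without 1 library, and their log2 fold changes over those fits ran from -7.20 to 0.66 (Krt71), -6.0 to 2.77 (Krt25), -5.21 to 0.97 (Krt27), -3.83 to 0.87 (Krt73), -3.41 to 0.26 (Tchh), -1.65 to 1.41 (Oca2) and -0.50 to 0.15 (Krt16), the highest in each without IMQ replicate 3. The range was -6.87 to 0.52 for Sprr4, whose highest was without IMQ replicate 2, -0.20 to 0.030 for H2-K1, whose highest was without IMQ replicate 1, and -0.061 to 0.10 for Il1f6, which was -0.025 without IMQ replicate 2 and lowest without bergapten replicate 2. The next counts cover the 110 called genes named by rule, other called list members and called genes chosen after their values were seen. Of these together, 86 were lost in the 6-library fit, 31 with limma voom and 37 with the block. Without bergapten replicate 1, 2 or 3 the numbers lost were 90, 59 and 79. Genes near or below 1 CPM, such as Il17a, Il17c, Ppbp and Serpina3k, rest on few reads in at least 1 group.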

Other observations

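Some genes outside the lists held their call in all 9 fits that left out a library; they were picked for that stability after their values were seen. Nampt, the rate-limiting enzyme of NAD salvage, had 90.6, 103 and 88.7 CPM in bergapten skin, 210.2, 227 and 149 CPM in IMQ skin and 159, 164 and 173 CPM in vaseline skin. Nampt fell by 1.05 (edgeR adjusted p = 0.00605). Xdh, which makes uric acid, had 364, 403 and 381 CPM in bergapten skin, 676, 607 and 601 CPM in IMQ skin and 339, 359.8 and 317 CPM in vaseline skin. Xdh fell by 0.71 (edgeR adjusted p = 0.00378). In both genes every IMQ library lay above every bergapten library. Ifi207, of an interferon-inducible family with near-identical copies that may share reads, fell by 1.04 (edgeR adjusted p = 0.00139), and the ubiquitin ligase adaptor Fbxo31 by 1.95 (edgeR adjusted p = 0.00457).

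Among stable rises, Mef2c, a transcription factor of muscle, endothelium and myeloid cells, averaged 82 ± 6.62 CPM in bergapten skin and 44.4 ± 7.29 CPM in IMQ skin (SD, n = 3 each). Mef2c rose by 0.88 (edgeR adjusted p = 0.00619). Rgs5, a marker of pericytes, had 204, 217 and 211 CPM in bergapten skin, 116, 125 and 131 CPM in IMQ skin and 158, 184 and 183 CPM in vaseline skin. Rgs5 rose by 0.76 (edgeR adjusted p = 0.00293), while the endothelial Flt1 fell. Dhrs7c, an enzyme of the muscle sarcoplasmic reticulum, had 10.5, 9.29 and 12.6 CPM in bergapten skin, 3.17, 4.31 and 4.88 CPM in IMQ skin and 33.4, 38 and 37.3 CPM in vaseline skin. Dhrs7c rose by 1.39 (edgeR adjusted p = 0.00492). The lysosomal sulfatase Arsb rose by 1.19 (edgeR adjusted p = 0.00112).

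Of 21 matrix protease genes 1 rose and 3 fell, among them the protease inhibitor Timp3, by 0.73 (edgeR adjusted p = 0.0313), and Plaur, the urokinase receptor, by 0.79 (edgeR adjusted p = 0.0101). Timp3 kept its call among the 9 fits only without any 1 IMQ replicate (up to 0.122). Plaur lost its call without bergapten replicate 3 (up to 0.0526). Of the matrix protease list 19.05% was called, against 4.83% of all genes tested.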
